A study of Caenorhabditis elegans with 2 samples.

Results

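Intergenic distal peaks of the transcription factor SOX-2 were described in late C. elegans embryos. They are the peaks in the authors' ranked list for the series whose summit lay on a nuclear chromosome, outside every annotated gene, and outside the window from 1000 bp upstream to 200 bp downstream of any 5′ end of a protein-coding transcript. No tRNA, snoRNA or snRNA gene lay within 500 bp of such a summit. The rule used positions and no measured value, and it found 1967 members among 8486 nuclear ranked peaks. The authors' thresholded list of the series held 129 of them, or 6.56%. That list holds peaks with an irreproducible discovery rate (IDR), a measure of rank agreement between 2 peak lists, of at most 0.01. Whether those were the lists of the 2 biological replicates was not known here. The thresholded list held 660 (7.78%) of all nuclear ranked peaks. The samples were 2 biological replicates of whole embryos, labelled late embryonic with an age of 3.5 hours and staged by egg bleaching, and they made up 1 group. All embryos were of strain RW12244, which carries the CRISPR allele st12244[sox-2::TY1::EGFP::3xFLAG] on chromosome X, so the tag sits on the endogenous gene. The tagged protein was precipitated with an anti-GFP antibody from chromatin sonicated to 200 to 800 bp. No untagged or second condition was analysed here, and whole embryos pool all cell types. The files hold peak positions and scores without reads per library, which leaves sequencing depth unknown.

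SOX proteins bind DNA through an HMG box, which fits into the minor groove and bends the helix at a short core sequence. In vertebrates SOX2 is known for its role in pluripotent cells and neural progenitors and for binding far from promoters, often beside a POU partner that reads an octamer. The C. elegans genome is compact, so most regulatory sequence lies close to a gene and long gaps between genes are uncommon. Its chromosome arms recombine more and hold more repeats than the centres. The label distal follows from the rule alone: 43 of the 129 thresholded summits (33.3%) lay within 500 bp of some annotated gene, and the closest lay 5 bp away.

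The sequences below are the 121 bp around the summits of 6 of the 12 strongest thresholded members, chosen among the 8 that held the SOX core, read from the WBcel235 assembly, which is ce11, on its forward strand. The SOX core was taken as CATTGT or CTTTGT on either strand, with all 6 letters within 50 bp of the summit, and it stands in capitals. They are shown because the core was more frequent at thresholded summits than around them. A pair of them held 2 copies, one near the thymosin gene tth-1 and one upstream of the autophagy gene epg-9.
X:15347809-15347929, between Y15E3A.5 and nfki-1: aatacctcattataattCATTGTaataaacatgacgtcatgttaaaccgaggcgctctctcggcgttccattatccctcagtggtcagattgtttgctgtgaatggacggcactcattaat
V:19962111-19962231, between srh-172 and srh-171: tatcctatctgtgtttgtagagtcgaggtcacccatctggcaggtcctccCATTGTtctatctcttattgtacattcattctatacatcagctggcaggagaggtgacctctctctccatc
X:8426313-8426433, between tth-1 and F08F1.3: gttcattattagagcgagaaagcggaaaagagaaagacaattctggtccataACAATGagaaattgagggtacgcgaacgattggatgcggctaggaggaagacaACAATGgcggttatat
IV:2599652-2599772, between Y69A2AR.47 and epg-9: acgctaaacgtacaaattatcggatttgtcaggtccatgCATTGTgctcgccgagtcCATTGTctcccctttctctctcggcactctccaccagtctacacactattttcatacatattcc
III:1233491-1233611, between pes-4 and fbxa-61: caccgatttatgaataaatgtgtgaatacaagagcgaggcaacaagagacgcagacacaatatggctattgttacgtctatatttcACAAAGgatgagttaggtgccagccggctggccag
IV:8782371-8782491, between C33D9.6 and C33D9.13: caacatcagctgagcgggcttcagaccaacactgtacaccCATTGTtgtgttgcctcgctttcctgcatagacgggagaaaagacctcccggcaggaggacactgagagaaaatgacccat

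Strong thresholded members without the core are shown next, since they are of 2 kinds. The first and the last are tandem repeats, in which a unit of 26 bp or 25 bp recurs. None of the 36-mers around the other 2 occurs elsewhere in the genome.
II:5097616-5097736, between C04G6.13 and C04G6.6: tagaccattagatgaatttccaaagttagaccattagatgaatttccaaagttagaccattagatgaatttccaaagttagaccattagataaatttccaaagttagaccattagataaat
III:13062661-13062781, between F54F12.1 and Y39E4B.6: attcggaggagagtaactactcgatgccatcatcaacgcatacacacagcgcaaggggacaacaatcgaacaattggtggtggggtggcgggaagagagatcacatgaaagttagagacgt
II:9574594-9574714, between F35H8.4 and exc-7: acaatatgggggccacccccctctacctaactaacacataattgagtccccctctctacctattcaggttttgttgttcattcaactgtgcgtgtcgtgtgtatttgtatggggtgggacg
III:2497921-2498041, between Y54F10AL.1 and Y54F10AM.8: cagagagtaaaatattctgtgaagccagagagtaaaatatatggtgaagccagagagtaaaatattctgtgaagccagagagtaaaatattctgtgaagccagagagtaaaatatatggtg

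The SOX core stood at the summits of 42 of the 129 thresholded members, 32.6% (95% Wilson interval 25.1 to 41.0, which covers counting error over peaks only). Windows of equal width placed 300 bp to the left, in reference coordinates, had it in 12 of 129, or 9.30%. The summit share exceeded the flank share beyond counting error (two-sided exact McNemar test, Benjamini-Hochberg adjusted p = 9.43e-06 over 10 tests). Of all 21421699 nuclear positions that meet the rule, 11.1% had the core within 50 bp. The flanks were therefore close to the level of intergenic distal sequence at large, and the summits were above both. The CATTGT form carried most of the difference, with 22.5% of thresholded summits against 5.43% of flanks (exact McNemar test, adjusted p = 0.000283). For CTTTGT the shares were 10.9% and 3.88%, and this difference did not pass the threshold of 0.05 (exact McNemar test, adjusted p = 0.0908). With flanks 500 bp away it did, at 7.75 percentage points (exact McNemar test, adjusted p = 0.0304). In the flanks 300 bp to the right, however, CTTTGT stood at 6.20%, nearer to its summit share, and CATTGT at 2.33%. An excess of CTTTGT thus depended on the flank chosen. Over all positions, CATTGT reached 5.38% and CTTTGT 6.04%. Thresholded members with the core had its nearest copy a median of 18 bp from the summit, and 4 of them held 2 or more copies.

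For the other motifs searched, no excess at thresholded summits passed the test. The octamer read by POU factors, taken as ATGCAAAT or ATGCTAAT, was at 1 of 129 thresholded summits and at 1.14% of all positions that meet the rule. A GATA site, the target of GATA factors of the gut and epidermis (either AGATAA or AGATAG or TGATAA or TGATAG), was at 16.3% of thresholded summits and 21.7% of their left flanks (exact McNemar test, adjusted p = 0.405). All positions that meet the rule held it in 20.0%. With calls from replicate 1 alone, the GATA share at summits differed from the flank by -16.2 percentage points (exact McNemar test, adjusted p = 0.00376). The call thus depended on the list used. At the 1838 members outside the thresholded list, the GATA share was 14.6% at summits and 18.2% in flanks (exact McNemar test, adjusted p = 0.00682). Against the flank on the other side, that difference was -2.29 percentage points and did not pass (exact McNemar test, adjusted p = 0.103).

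Members outside the thresholded list also held the core more often than their flanks, but at a lower level. It stood at 317 of 1838 such summits (17.2%, 95% interval 15.6 to 19.0) and in 10.2% of their left flanks (exact McNemar test, adjusted p = 2.43e-09). The thresholded share was higher by 15.3 percentage points (two-sided Fisher's exact test, adjusted p = 0.000241 over 10 tests). With the conservative list as the mark the difference was 9.997 percentage points and did not pass (Fisher's exact test, adjusted p = 0.0565). With IDR alone as the mark it was 2.90 percentage points (Fisher's exact test, adjusted p = 0.338). That mark adds 87 members described further on, of which 3 (3.45%) held the core. The 1751 members below the IDR threshold held the core in 17.9%. Among thresholded members, 24 of the 64 strongest held it (37.5%) and 18 of the 65 weakest (27.7%). By each replicate's own thresholded list, 30.4% of 115 intergenic distal peaks in replicate 1 and 33.0% of 103 in replicate 2 held the core.

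**Figure D1:**
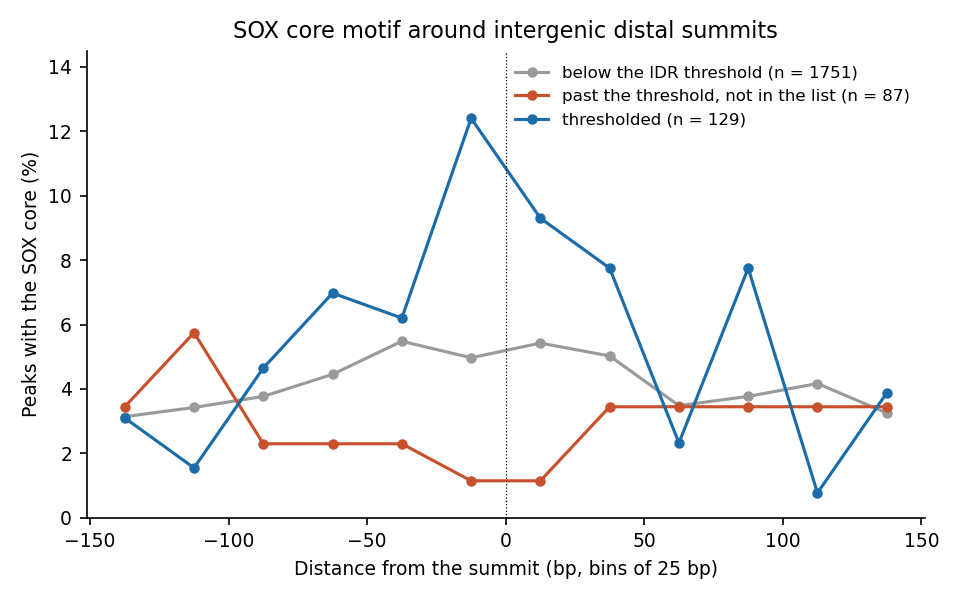
Share of intergenic distal peaks (y axis, percent) with a copy of the SOX core centred in each 25 bp bin around the summit (x axis, bp), for 129 thresholded peaks, 87 peaks past the IDR threshold but not in the thresholded list and 1751 peaks below it. The thresholded peaks reached 12.4% in the 25 bp to the left of the summit and 9.30% in the 25 bp to the right, while peaks below the threshold stayed between 3.14% and 5.48% in every bin.

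Signal of the thresholded members ran from 57.3 to 269, with a median of 99.2. Signal here means the score that the authors' lists give each peak. Its scale is not stated, so it only ranks peaks within a list. Differences and SDs between replicates are given as listed. They cannot be told apart from a difference in scale or depth between the lists. The median was close to that of 249 thresholded promoter-proximal peaks (96.7) and 76 thresholded intronic peaks (97.7). Of the 12 strongest members, 12 overlapped thresholded peaks of both replicates, 8 lay in a chromosome arm and 8 held the core. Over all 129 these shares were 47.3%, 49.6% and 32.6%. The 12 were picked by signal from the same libraries, so their calls in both replicates follow largely from that choice.

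The strongest member, at II:5097534-5097817, had a signal of 269 in the series, 153 in replicate 1 and 121 in replicate 2 (mean 137 ± 22.9, SD, n = 2). It sat in a gap of 2493 bp between C04G6.13 and the non-coding gene C04G6.15, and 91.0% of the 36-mers around it occurred more than once in the genome. The second, at X:15347812-15347907, had 114 and 121 in replicates 1 and 2 (mean 117 ± 4.90). Its nearest coding genes were Y15E3A.5 at 3723 bp and nfki-1, an IκB homologue, at 7369 bp. None of its 36-mers was repeated.

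The third, at I:14146319-14146407, had 115 and 110.2 in the replicates (mean 113 ± 3.40). It lay 4125 bp from kal-1, the homologue of human anosmin that acts in epidermal closure and neurite branching, and held a CTTTGT core. At V:19962029-19962312 the replicate values were 104 and 119 (mean 111 ± 11.1), in a gap of 4783 bp between the chemoreceptor genes srh-172 and srh-171. Among the 12, the replicates differed least in proportion at IV:8782289-8782572, with 81.0 and 80.6, beside C33D9.13.

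At III:13062688-13062809 the replicates gave 101 and 104 (mean 103 ± 1.97) in a gap of 12269 bp. A further thresholded member stood in the same gap, at III:13064648-13064931, with 55.4 and 31.4. Its summit was 5966 bp from Y39E4B.6, the nearest gene, which made it the thresholded member farthest from any gene. It held the CATTGT core, and the stronger peak of that gap did not.

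Several of the strongest members flanked genes with known roles. A peak at X:8426231-8426514, with 111 and 80.7 in the replicates, lay 2640 bp from tth-1, which encodes an actin-binding thymosin protein. The coding gene F08F1.3 was nearer, at 2465 bp, and the non-coding gene F08F1.20 was nearest, at 68 bp. The peak at IV:2599687-2599792, with 87.5 and 107, was 1429 bp upstream of epg-9, a component of the autophagy initiation complex. At II:9574512-9574795, with 74.9 and 75.7, the summit was 1316 bp from exc-7, an ELAV-type RNA-binding protein of the excretory canal and neurons. The widest difference between replicates among the 12 was at I:14070980-14071065, with 116 and 57.6 (mean 86.9 ± 41.6). The coding neighbours of that peak were F47G4.4 at 2222 bp and the glycerol-3-phosphate dehydrogenase gene gpdh-1 at 4812 bp. Nearest was the non-coding gene F47G4.10, at 406 bp.

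The last of the 12 to be named lie beside less studied genes. At III:1233492-1233587, with 97.5 and 83.5, the coding neighbours were pes-4 at 3277 bp and the F-box gene fbxa-61 at 5497 bp. At IV:14032647-14032930, with 84.7 and 67.5, the gap between annotated genes was 394 bp, bounded by a piRNA gene and a non-coding RNA gene. The nearest coding gene there, irld-55, was 8161 bp away. Chromosome IV carries 14714 of the 15363 annotated nuclear piRNA genes.

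Over the 129 thresholded members, the gap between annotated genes around the summit had a median size of 3675 bp, with a range of 350 to 20289 bp. For the members outside the list the median was 4141.5 bp, and for all positions that meet the rule it was 3861 bp. Gaps of at least 5000 bp held 48 of 129 thresholded members (37.2%, 95% interval 29.4 to 45.8) and 41.1% of the others. This difference did not pass (Fisher's exact test, adjusted p = 0.972), and 39.3% of all positions that meet the rule lie in such gaps. With IDR alone as the mark, the difference turned to 12.3 percentage points, 51.9% of 216 members against 39.5% of 1751, and passed (Fisher's exact test, adjusted p = 0.00237). That mark adds 87 members described further on, which shared 49 gaps. The test counts peaks of the same gap as separate, so its p-value is likely too small. The 129 thresholded members occupied 125 different gaps, and 4 gaps held 2 of them. Measured between protein-coding genes alone, the median over the 129 was 7755 bp.

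**Figure D2:**
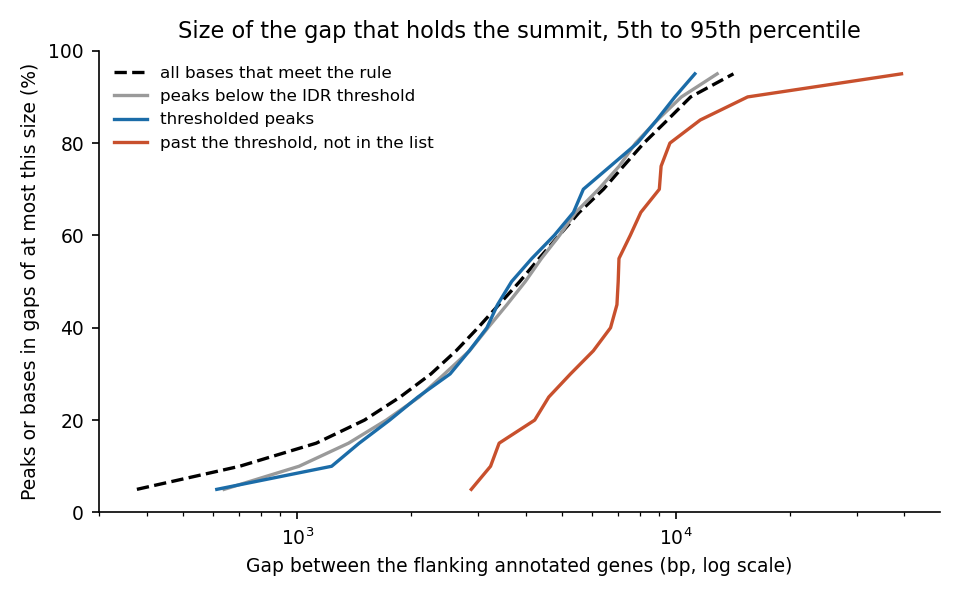
Size of the gap between flanking annotated genes (x axis, bp, log scale) against the share of peaks or bases in gaps of at most that size (y axis, percent), from the 5th to the 95th percentile. Thresholded peaks (median 3675 bp), peaks below the IDR threshold (median 3993 bp) and all bases that meet the rule (median 3861 bp) run together, and the peaks past the threshold but not in the thresholded list lie to the right (median 7024 bp).

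The largest gap with a thresholded member, 20289 bp, separates C07F11.2 from tol-1, the Toll-like receptor gene. The peak, I:424468-424751, had 52.9 and 50.8 in the replicates and stood near the edge of the gap, 897 bp from C07F11.2. In the next gap, 17602 bp from Y48G8AR.3 to the death-associated kinase gene dapk-1, I:1288741-1289024 had 55.7 and 40.2 and was likewise 924 bp from the left gene. Both lay much closer to the gene that ended there than to the named gene on the far side, tol-1 at 19393 bp and dapk-1 at 16679 bp.

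A peak at II:9491092-9491375, with 40.4 and 50.9, was 3847 bp from T19H5.4 and 11523 bp from the receptor guanylyl cyclase gene gcy-3. At III:6661712-6661995, with 54.7 and 63.5, the coding neighbours were pdfr-1, a neuropeptide receptor, at 9771 bp and rbf-1, a rabphilin homologue, at 13906 bp. Repeated 36-mers made up 65.7% of the window at that site. Of the 5 members in the largest gaps, 1 held the core, against 15 of 48 (31.2%, interval 19.9 to 45.3) over all thresholded members in gaps of at least 5000 bp and 27 of 81 (33.3%) in smaller gaps.

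Distance to the nearest annotated gene had a median of 920 bp for thresholded members and 1076 bp for the others. A distance of at least 2000 bp was found for 31 of 129 (24.0%) and 24.9% (Fisher's exact test, adjusted p = 1), beside 23.8% of all positions that meet the rule. Marked by IDR alone, this difference turned to 9.58 percentage points and passed (Fisher's exact test, adjusted p = 0.00639). That test too counts the 87 added members as separate peaks, though they shared 49 gaps. The nearest gene was protein-coding for 66 thresholded members, a non-coding RNA for 43, a piRNA gene for 7, a pseudogene for 5 and another small or long non-coding RNA for the rest. Its 3′ end faced the summit in 66 cases and its 5′ end in 63. Among the 5 farthest from a gene, 3 held the core, beside 32.6% of all 129, and 5 peaks are too few to compare.

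A pair of the farthest members lay on III and V. At III:13329556-13329839, with 29.5 and 43.1 in the replicates, the nearest gene was sdz-20 at 4356 bp. At V:4967311-4967594 the replicates gave 66.0 and 25.5, and the summit was 4351 bp from tam-1, a RING finger gene that affects the expression of transgene arrays, and 4317 bp from the chemoreceptor gene srsx-9.

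Limits of the rule were met closely by a few thresholded peaks. A member at II:12089737-12090020, with a signal of 79.4, was 1011 bp upstream of cnt-1, an ArfGAP gene, and a peak 990 bp upstream of F09C8.2, with 116, was not a member. A member at II:11635784-11636067, with 151, was 599 bp from the snoRNA gene ZK20.9 and 2317 bp upstream of din-1, a corepressor of the DAF-12 receptor. The nearest peak left out for a small RNA gene was 396 bp from a tRNA gene and had a signal of 74.97.

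Over all chromosomes together, the densities of thresholded members in arms and centres were close. The centre, taken as the middle 50% of each chromosome, held 65 of 129 (50.4%, interval 41.9 to 58.9), the members outside the list 50.8% (Fisher's exact test, adjusted p = 1), and 48.0% of all positions that meet the rule. Per megabase of such sequence there were 5.75 thresholded members in arms and 6.32 in centres. The centre was denser on I, IV and V, and the arms on II, III and X. On IV the arms had 3.98 and the centre 7.24, and on X 8.01 and 6.42. These values do not show that arms and centres are alike. The core was at 23 of 64 arm summits (35.9%) and 19 of 65 centre summits (29.2%), with overlapping intervals of 25.3 to 48.2 and 19.6 to 41.2.

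By chromosome, X held the most thresholded members, 37 of 129 (28.7%, interval 21.6 to 37.0), with 23.7% of the sequence that meets the rule. Members outside the list were on X in 24.0% (Fisher's exact test, adjusted p = 0.809). Chromosome V held 12 (9.30%, interval 5.40 to 15.6) with 18.7% of that sequence, and its arms had 2.10 thresholded members per megabase, fewest of the 12 arm and centre regions. Chromosome I held 22 with 11.6% of the sequence, and its centre had 9.89 per megabase. The arm values of V rest on 4 peaks and the centre value of I on 12. Members below the IDR threshold were least dense on IV and V, between 58.2 and 69.7 per megabase.

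**Figure D3:**
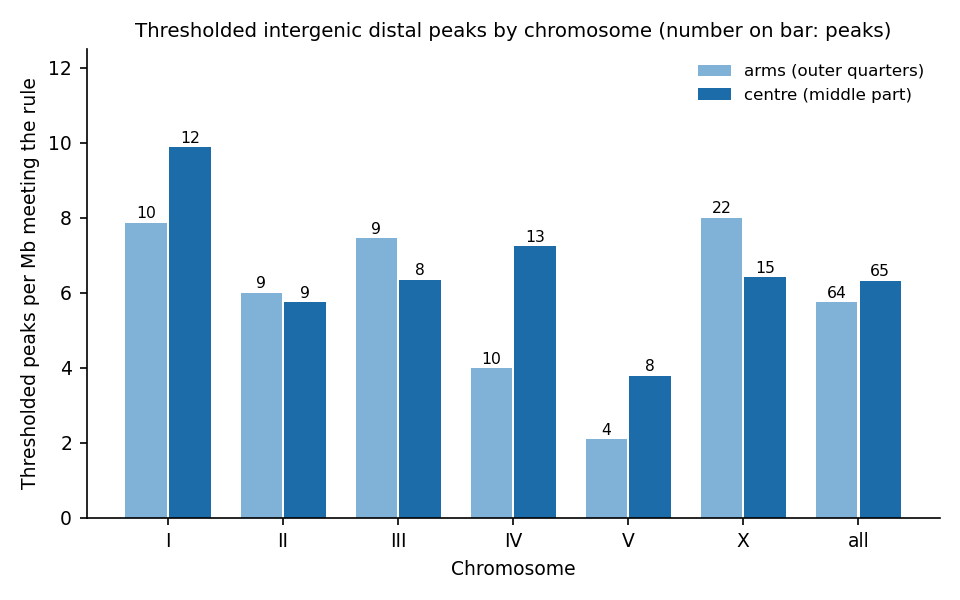
Thresholded intergenic distal peaks per megabase of sequence that meets the rule (y axis) in the arms and the centre of each chromosome and over all chromosomes (x axis), with the number of peaks on each bar. Over all chromosomes the arms had 5.75 and the centres 6.32 per megabase, and the arms of chromosome V were lowest with 2.10.

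The orientation of the flanking protein-coding genes was then compared. Thresholded summits lay between divergent genes, whose 5′ ends face the gap, in 44 of 129 cases (34.1%), between genes on the same strand in 67 (51.9%) and between convergent genes in 18 (13.95%). Members outside the list gave 31.5%, 54.8% and 13.6%, and none of the 3 differences passed (Fisher's exact test, adjusted p from 0.972 to 1). When IDR alone was the mark, same-strand neighbours differed by -12.4 percentage points (Fisher's exact test, adjusted p = 0.00237) and convergent ones by 7.58 (adjusted p = 0.00639). The 87 members which that setting adds lay between same-strand genes in 31.0% and between convergent genes in 29.9%. They shared 49 gaps, and peaks of the same gap have the same neighbours, so these p-values are likely too small. A divergent gap puts a distal summit upstream of both neighbours.

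Base composition did differ. Windows of 100 bp to each side of the summit had a GC content of at least 40% at 94 of 129 thresholded members (72.9%, interval 64.6 to 79.8) and at 51.8% of the others (Fisher's exact test, adjusted p = 2.63e-05). Median GC content was 43.3% and 40.3%. Thresholded promoter-proximal and intronic peaks had medians of 45.3% and 45.5%. With IDR alone as the mark, which adds 87 peaks described further on, the difference was 6.83 percentage points and did not pass (Fisher's exact test, adjusted p = 0.101).

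Genes beside the thresholded members were counted by class, with the nearest coding gene on each side. F-box genes, a large and fast-evolving family of ubiquitin ligase adaptors, flanked 5 of 129 (3.88%) and 1.52% of the others. Chemoreceptor genes flanked 6 (4.65%) and 3.54%, nuclear hormone receptor genes 3 (2.33%) and 2.99%, and histone genes 2 (1.55%) and 0.218%. Neuropeptide genes flanked none, beside 2.01% of the others, and C-type lectin genes none, beside 1.41%. Collagen genes flanked 2 (1.55%) and 0.979%. These counts are small and were not tested.

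Homeobox genes of the ceh family flanked 1 thresholded member (0.775%, beside 1.85% of the others), as did hlh genes (0.762% of the others). The homeobox gene ceh-24, an NK-2 type factor of pharyngeal muscle and neurons, was 4630 bp from V:13808459-13808742, which had 35.5 and 47.0 in the replicates. The E-protein gene hlh-2, a partner of proneural factors, was 1150 bp from I:7194928-7195211, with 59.0 and 74.4 in the replicates. The nuclear receptor genes nhr-277, nhr-17 and nhr-41 lay 2802, 2783 and 5717 bp from their peaks. The linker histone gene his-24 was 330 bp from X:14491307-14491590, which held the CTTTGT core and lay at the gene's 3′ side, and his-67 was 1655 bp from I:9986655-9986938. A microRNA gene adjoined 3 thresholded members (2.33%, beside 1.69% of the others), of which mir-53 was nearest to its peak at 81 bp.

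Replicates were compared peak by peak. A ranked summit lay within 100 bp in both replicates for 127 of the 129 thresholded members, and the median signal was 54.1 in replicate 1 and 49.6 in replicate 2, each over the 128 with a value. Across those 127 peaks Spearman's rho of the replicate signals was 0.435 and Pearson's r of their log2 values 0.489. This is a description over peaks of the same pair of libraries, in a list that was itself selected by agreement in rank. By overlap of at least 1 bp, 91 members met a thresholded peak of replicate 1 and 85 one of replicate 2, where all nuclear ranked peaks did so in 6.52% and 6.68%. Both replicates were met by 61 (47.3%), replicate 1 alone by 30, replicate 2 alone by 24 and neither by 14. The rate of meeting both over all nuclear ranked peaks was 4.23%. The thresholded list was made from the same libraries, so these shares describe how the lists nest. The conservative list overlapped 99 of the 129 (76.7%), beside 7.51% of all nuclear ranked peaks.

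**Figure D4:**
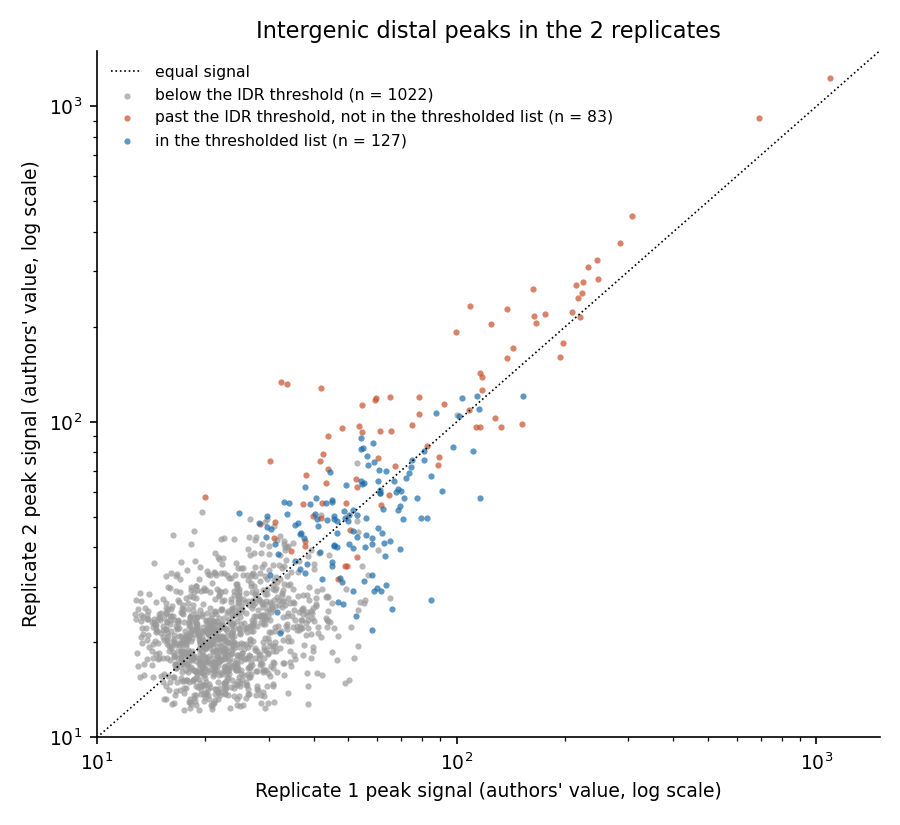
Peak signal in replicate 1 (x axis) and replicate 2 (y axis), both the authors' values on log scales, for intergenic distal peaks with a ranked summit within 100 bp in both replicates; the dotted line marks equal signal. The 127 thresholded peaks sit between 21.4 and 153 around the line, while the 83 peaks past the IDR threshold but not in the thresholded list reach 1094 and 1228 and lie mostly above it.

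A further 87 members had passed the IDR threshold of 0.01 without appearing in the thresholded list. They made up 87 of the 96 nuclear peaks in that state, beside 3 promoter-proximal, 1 intronic, 3 near a small RNA gene and 2 other genic peaks. The submitters' notes show 1 more input that went only into thresholded lists, and say nothing of its content. Their signals ran from 56.8 to 2123 with a median of 162, and 24 of them exceeded the strongest thresholded member. In the 83 paired in both replicates the median ratio of replicate 1 to replicate 2 was 0.795, against 1.04 in thresholded members. Each ratio carries any difference in scale between the 2 lists. None of the 87 overlapped a thresholded peak of either replicate or the conservative list. Such overlap was also rare below the IDR threshold, at 1.48% for replicate 1, 1.14% for replicate 2 and 0.742% for the conservative list.

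The 3 strongest of the 87 are shown next. The first and the second are tandem repeats of 26 bp units, as is the strongest thresholded member. The third is no tandem, although 78.3% of its 36-mers occur more than once.
X:15811047-15811167, between Y7A5A.7 and Y7A5A.8: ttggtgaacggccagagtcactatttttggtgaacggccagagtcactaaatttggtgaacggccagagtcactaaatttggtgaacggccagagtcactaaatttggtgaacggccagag
X:11785761-11785881, between Y102F5A.1 and rsd-3: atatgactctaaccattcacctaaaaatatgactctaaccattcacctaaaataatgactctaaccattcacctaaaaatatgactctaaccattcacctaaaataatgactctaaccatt
X:293385-293505, between Y47C4A.1 and R57.2: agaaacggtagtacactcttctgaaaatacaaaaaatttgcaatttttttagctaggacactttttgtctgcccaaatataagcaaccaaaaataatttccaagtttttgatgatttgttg

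The first gave 1094 in replicate 1 and 1228 in replicate 2 (mean 1161 ± 94.7, SD, n = 2), the second 691 and 919, and the third 308 and 450.1. Replicate 2 had the higher listed value at each of the 3. A median of 93.98% of the 36-mers around the 87 summits occurred more than once in the genome, and 86 of 87 had at least 50% repeated. In 61 (70.1%) at least 80% of bases equalled the base 1 period on, with periods from 9 to 59 bp. Thresholded members did so in 9 of 129 (6.98%), and members below the IDR threshold in 68 of 1751 (3.88%). Short reads from such sites match several places, and the authors' handling of them is not stated; its part in these signals was not tested. The SOX core was at 3 of the 87 summits (3.45%, interval 1.18 to 9.65) and a GATA site at 7 (8.05%).

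These 87 peaks shared 49 gaps, and 23 gaps held 2 or more. A gap of 48002 bp on chromosome III, between the long non-coding gene linc-165 and the aldehyde dehydrogenase gene alh-12, held 5 with signals from 83.4 to 292. Gaps beside Y102F5A.1 on X and Y32H12A.1 on III held 4 each. No gap held both a peak of this kind and a thresholded member. Of the 1546 gaps with any intergenic distal peak, only 125 held a thresholded one, so few shared gaps would be looked for among 49. The chromosome centres held 53 of the 87 (60.9%, interval 50.4 to 70.5), and the median over the 87 peaks of the size of their gap was 7024 bp.

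**Figure D5:**
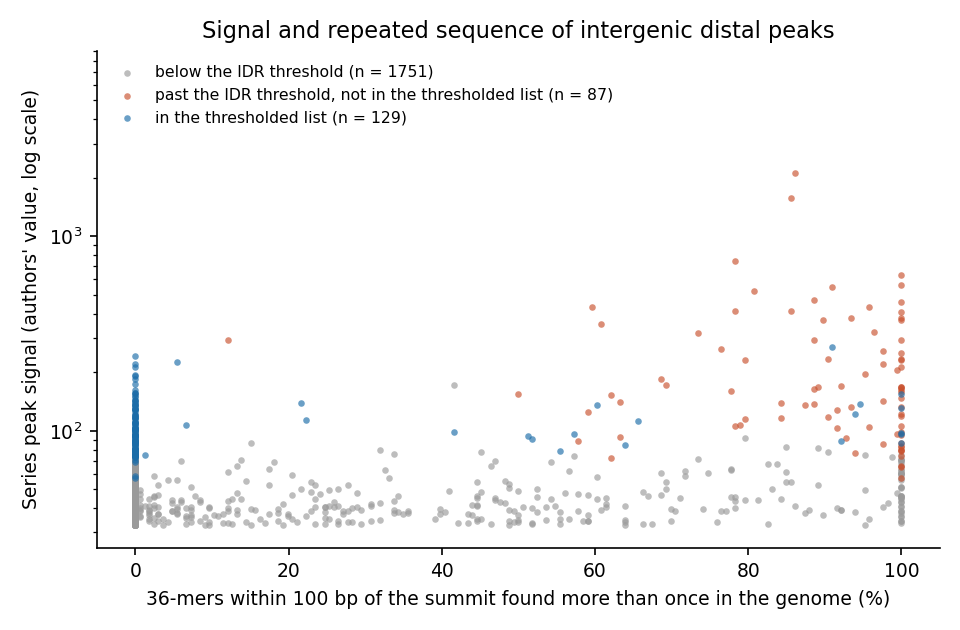
Series peak signal (y axis, authors' value, log scale) against the share of 36-mers within 100 bp of the summit that occur more than once in the genome (x axis, percent), for intergenic distal peaks below the IDR threshold (n = 1751), past it but not in the thresholded list (n = 87) and in the thresholded list (n = 129). Of the 87, 86 lie at 50% or more and their signals reach 2123, while 107 of the 129 thresholded peaks lie at 0.

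Repeated sequence was not absent from the thresholded list. At least 50% of 36-mers were repeated at 16 of 129 thresholded members (12.4%), at 11.97% of all others (Fisher's exact test, adjusted p = 1) and at 7.65% of the 1751 members below the IDR threshold. Marked by IDR alone, the difference was 39.6 percentage points (Fisher's exact test, adjusted p = 6.77e-44), a set that includes the 87. Those peaks shared 49 gaps, so this p-value is likely too small. None of those 16 held the core (interval 0 to 19.4%), which stood at 42 of the other 113 (37.2%, interval 28.8 to 46.4). The 16 had a median signal of 96.6, close to the 99.7 of the rest. Besides the strongest member, they included a pair at III:2497839-2498122 and III:2499332-2499615, with series signals of 155 and 137, in 1 gap between Y54F10AL.1 and Y54F10AM.8. Another pair shared a gap between F08B6.7 and pqn-21, with 96.2 and 86.3.

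Compared with other classes, intergenic distal ranked peaks were in the thresholded list less often than promoter-proximal ones, 249 of 2850 (8.74%), and more often than intronic ones, 76 of 1736 (4.38%). Both differences from 6.56% passed (Fisher's exact test, adjusted p = 0.00954 each over 3 tests), as did that from all other nuclear peaks, 8.15% (adjusted p = 0.0211). The order against all others depended on the 96 nuclear peaks past the IDR threshold but not listed, of which 87 are distal. Counted by IDR alone, 216 of 1967 distal peaks (11.0%) and 8.28% of the others had passed, a difference of 2.70 percentage points in the opposite direction (Fisher's exact test, adjusted p = 0.00045), and against promoter-proximal peaks it was 2.14 points (adjusted p = 0.0153). The 87 shared 49 gaps, so both p-values are likely too small. With those 96 peaks left out, the difference from all others was -1.29 points (Fisher's exact test, adjusted p = 0.0718). With calls from replicate 1 alone it was -0.74 points, and against promoter-proximal peaks -0.964 points (Fisher's exact test, adjusted p = 0.252 for each). With a promoter window of 2000 bp, the differences were -1.37 points (Fisher's exact test, adjusted p = 0.125) and -1.13 points (adjusted p = 0.178).

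Between thresholded distal peaks and thresholded peaks of the other 2 classes, none of 10 tests passed. The core was at 32.6% of them, at 24.9% of promoter-proximal and at 23.7% of intronic thresholded peaks (Fisher's exact test, adjusted p = 0.41 for each). Chromosome X held 28.7%, 18.9% and 19.7% (Fisher's exact test, adjusted p = 0.366 and 0.41). With a promoter window of 500 bp, X held more distal than promoter-proximal peaks by 14.3 percentage points (Fisher's exact test, adjusted p = 0.0137). The conservative list overlapped 76.7%, 83.1% and 77.6%, and both replicates were met by 47.3%, 47.4% and 43.4%. With calls from replicate 1 alone, the conservative list overlapped distal peaks less often than promoter-proximal ones, by a difference of -14.7 percentage points (Fisher's exact test, adjusted p = 0.0365). With IDR alone as the mark, fewer distal than promoter-proximal peaks met both replicates, by -18.6 percentage points (Fisher's exact test, adjusted p = 0.000133), or the conservative list, by -36.3 points (adjusted p = 1.78e-15), and fewer than intronic ones met that list, by -30.8 points (adjusted p = 1.32e-05). None of the 87 added members overlaps those lists. The differences under that mark therefore follow largely from adding them, and their p-values say nothing further about the classes. With 129, 249 and 76 peaks, these results do not show that the classes are alike.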

How the data were processed

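Peak lists of 1 group of 2 biological replicates were used, on build ce11 per the labels. The deposited lists give for each peak the authors' signal value and, in ranked lists, the −log10 IDR, at most 5. For aligner and peak caller, names were not given in the sources used here. Each replicate has its own lists, and the series lists were made by the authors from both. In the 2 ranked lists of the series, 4 signal columns without a sample name were left unused. Depth is unknown.

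Summits were placed on the WBcel235 sequence and the Ensembl release 115 annotation with Python 3.11.15, numpy 2.4.6 and scipy 1.17.1. Replicate signals came from ranked summits within 100 bp, and overlap meant 1 bp. A summit was intronic inside a protein-coding gene but in no exon. Shares have 95% Wilson intervals and were compared by two-sided Fisher's or exact McNemar tests with Benjamini-Hochberg adjustment within 4 families, so p-values describe peak lists and not embryo cultures. Alternatives changed the promoter window, the small RNA distance, the lists, the motif windows and flanks, and left out each replicate. The code was tested on simulated peaks. Named peaks are the 12 strongest thresholded members, the 5 in the largest gaps, the 5 farthest from a gene and those at the rule's limits, with their coding neighbours and up to 4 neighbours per gene class. Peaks outside the thresholded list were named after their values were seen. Members, lists and tests were chosen with earlier results of these data known.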

Additional observations from a re-analysis of the deposited data

How the results depend on the processing

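Values are differences in percentage points; adjusted p is in parentheses where a call was lost. The excess of the SOX core at thresholded summits over flanks (23.3) passed under all 16 alternatives, from 12.04 to 29.5, and the higher call share of distal than intronic peaks under all 12. The lower call share against all other peaks lost its call with a 2000 bp promoter window (-1.37, 0.125), with unlisted peaks past the IDR threshold left out (-1.29, 0.0718) and in 1 replicate (-1.75 to -0.74). The excess of the core over unlisted members lost it with the conservative list (9.997, 0.0565). With IDR alone as the mark, a setting added after seeing the data like the 2 that left peaks out, the call share was 2.70 against all others and 2.14 against promoter-proximal peaks, the core 2.90 (0.338), GC content 6.83 (0.101), gaps 12.3, distance to a gene 9.58, the centre 4.37, same-strand neighbours -12.4, convergent neighbours 7.58 and repeated 36-mers 39.6; against promoter-proximal peaks the core was -3.77, and against intronic peaks the core was -2.54, the centre 2.68 and both replicates -14.6. This setting adds the 96 nuclear peaks past the IDR threshold but not listed, 87 of them distal. The 87 shared 49 gaps, so the peaks that its tests count as separate were not independent.

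Other changes of sign were in differences that had not passed. Against unlisted members, the centre turned with 1000 bp around small RNA genes (0.352), pseudogenes not counted (0.805), the 96 peaks left out (0.131) and single replicates (-1.24 to 0.73). Distance to a gene turned with the 96 left out (0.273). Divergent neighbours turned with the 2000 bp window (-0.775) and single replicates (-2.27 to 0.857), same-strand neighbours with single replicates (-1.71 to 3.69), and convergent neighbours with the 500 bp window (-0.262), 1000 bp around small RNA genes (-0.205), the conservative list (-0.246) and single replicates (-1.31 to 0.962). Repeated 36-mers turned with the 500 bp window (-0.745), the conservative list (-1.36) and single replicates (-0.943 to 0.405). The octamer turned at thresholded summits with the other flank and with the flank at 500 bp (both -0.775) and single replicates (-2.56 to 0.952), and at unlisted summits with the 500 bp window (0.0903), the other ranked list (0.0537), windows of 100 bp (0.163) and single replicates (-0.107 to 0.108). Calls in both replicates against promoter-proximal peaks turned with the 2000 bp window (3.08), 1000 bp around small RNA genes (0.113), the conservative list (6.64), merged summits (0.276), repeated peaks left out (0.372) and single replicates (-8.43 to 0.31), and against intronic peaks with single replicates (-5.34 to 3.49). Against intronic peaks, the centre turned with the 2000 bp window (0.861) and single replicates (-7.09 to 2.22), and the conservative list with the other ranked list (0.2997) and single replicates (-14.1 to 14.3). The cause was not tested. The unknown depth limits every signal value, and 2 replicates of 1 group allow no test over cultures.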

Other observations

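SOX genes themselves were flanked by 5 intergenic distal peaks, all outside the thresholded list and named here after their values were seen. The strongest, at X:14688752-14689035, was 1922 bp from sox-3 and had a series signal of 76.7, with 32.3 in replicate 1 and 37.8 in replicate 2. At X:7452903-7453186, 5235 bp from sox-2, the series signal was 65.9, with 40.6 and 26.1 in the replicates. A weaker peak at X:7454799-7455082, 3339 bp from sox-2, had 40.4, with 12.8 and 27.2. The other two lay beside sox-4 and egl-13, with series signals of 43.7 and 40.8. The −log10 IDR of the 5 ran from 0.0715 to 1.78, below the value of 2 that the threshold needs. Of all 1967 intergenic distal peaks, 6.56% were in the thresholded list. With only 5 peaks, the absence of a listed one is no result about SOX genes.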
